A study of Rattus norvegicus with 6 samples.

Results

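The genes described here are 10 members of the rat Cyp4 family: Cyp4a1, Cyp4a2, Cyp4a3, Cyp4a8, Cyp4b1, Cyp4f1, Cyp4f4, Cyp4f5, Cyp4f6 and Cyp4v3. They were chosen by name, out of 15284 genes named on the array, and every probe carrying a RefSeq accession of one of them was taken, which gave 17 of 61573 probes. Liver RNA came from male Sprague-Dawley rats (Crl:CD(SD)), bought at 5 weeks of age and kept on a basal diet. The control group of 3 rats, called corn oil 1 to 3, received corn oil. The treated group of 3 rats, called BBMP 1 to 3, received 1000 mg/kg/day of BBMP, which is the flame retardant 2,2-Bis(Bromomethyl)-1,3-Propanediol, by a route and in a vehicle that the labels do not state. The duration is given as 28 days in the description of the series and as 9 weeks in the treatment protocol. Each liver was hybridised to its own 1-colour Agilent array, and no other genotype, dose or time was studied here.

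Cyp4 enzymes are cytochromes P450 of the endoplasmic reticulum that put a hydroxyl group on the terminal or next-to-terminal carbon of fatty acids. The Cyp4a enzymes act on saturated fatty acids and on arachidonic acid, and in rodent liver their genes are classical targets of the fatty acid receptor PPAR-alpha, so that fasting, high fat intake and peroxisome proliferators raise them. The Cyp4f enzymes include hydroxylases of leukotrienes and of long-chain fatty acids. The hydroxylated acid can be oxidised further by alcohol and aldehyde dehydrogenases to a dicarboxylic acid, which peroxisomes then shorten.

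In these livers 0 of the 10 genes passed limma's adjusted p of 0.05 for BBMP against corn oil, where 2 of 28112 features (0.00711%) passed. All 10 genes were tested, since all 17 of their probes were well above background on all 6 arrays and none was saturated. Measured differences were upward for 4 genes and downward for 6, with a median of -0.03 on the log2 scale against -0.012 for all features; without BBMP 3 they were upward for 7 and downward for 3. At an unadjusted limma p under 0.05 there were 3 genes, Cyp4f5 upward and Cyp4f1 and Cyp4f6 downward, where 10.8% of all features reached that level. With quantile normalization or with no filter on dim probes it was 1 gene, Cyp4f5. Only Cyp4f1 had groups that did not overlap, which 17.8% of all features showed. With every probe taken separately, 5 of the 17 Cyp4 probes had an unadjusted limma p under 0.05 and 2 of the 17 had groups without overlap, against 10.4% and 17.4% of 37644 features. The other recurrent feature was a spread between livers, each on its own array, within each group, shared by the probes that represent Cyp4a2, Cyp4a3 and Cyp4a8. The 3 probes of Cyp4a8 did not order the animals alike, as described below.

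The control arrays shared 1 slide and 1 scan, and the treated arrays shared a different slide and scan. Every difference below could therefore belong to slide or scan as well as to BBMP, and these cannot be told apart. The median background was 39, 37 and 37 intensity units on the arrays of corn oil 1 to 3 and 56, 55 and 54 on those of BBMP 1 to 3. The part of background in the differences of dim probes was not tested. Between 60.1% and 64.4% of probes were well above background on an array, and with 3 arrays a group only coarse differences are resolved. Across 28098 features, any pair of arrays correlated with a Pearson r of 0.986 to 0.992. The livers carried their defining markers: 12 of 12 hepatocyte genes were well above background on all 6 arrays. Of the markers of other organs, 3 of 6 for kidney, 2 of 5 for lung and 1 of 4 for fat were also well above background on all 6 arrays. Their summed signal, in units of the array's 75th percentile, was 105 to 153.7 in corn oil and 99.2 to 117.5 in BBMP livers for kidney, 0.172 to 0.216 and 0.171 to 0.219 for lung, and 6.53 to 10.3 and 5.56 to 8.59 for fat. The kidney marker Slc34a1, the lung markers Sftpc and Sftpa1 and the fat markers Adipoq and Lep were not well above background on any array. A bulk liver sample does not tell fewer cells of a type from less RNA per cell.

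The Cyp4a genes lie side by side in the rat genome, in the order Cyp4a8, Cyp4a2, Cyp4a3, Cyp4a1, Cyp4b1, with 1 further coding gene, Cyp4a2l1, between Cyp4a2 and Cyp4a3. The RefSeq promoter table (build GRCr8) held 7 of the 10 genes. It had no window for Cyp4a1, Cyp4f4 or Cyp4v3, which were therefore not searched. Its windows for Cyp4a2 and Cyp4a3 were identical at 284 of 295 aligned bases (96.3%), those of Cyp4a2 and Cyp4a8 at 168 of 289 (58.1%), and those of Cyp4f5 and Cyp4f6 at 149 of 234 (63.7%). The 250 bases before the annotated start of these 3 Cyp4a genes are shown because the probes that represent them varied together between livers, as described below. Capitals mark the hexamer AGGTCA, the core element of DNA that nuclear receptors such as PPAR-alpha recognise, searched on both strands.
Cyp4a2 (chr5:134170909-134171158, minus strand): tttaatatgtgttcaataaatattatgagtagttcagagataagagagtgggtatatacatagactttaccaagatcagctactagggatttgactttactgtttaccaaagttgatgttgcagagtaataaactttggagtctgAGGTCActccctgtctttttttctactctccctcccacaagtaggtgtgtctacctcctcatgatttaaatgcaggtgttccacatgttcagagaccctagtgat
Cyp4a3 (chr5:134352237-134352486, minus strand): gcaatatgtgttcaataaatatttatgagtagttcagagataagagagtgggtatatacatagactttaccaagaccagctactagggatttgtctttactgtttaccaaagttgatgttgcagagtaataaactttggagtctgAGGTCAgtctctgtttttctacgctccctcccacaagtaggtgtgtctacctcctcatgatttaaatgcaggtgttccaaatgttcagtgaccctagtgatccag
Cyp4a8 (chr5:133970227-133970476, minus strand): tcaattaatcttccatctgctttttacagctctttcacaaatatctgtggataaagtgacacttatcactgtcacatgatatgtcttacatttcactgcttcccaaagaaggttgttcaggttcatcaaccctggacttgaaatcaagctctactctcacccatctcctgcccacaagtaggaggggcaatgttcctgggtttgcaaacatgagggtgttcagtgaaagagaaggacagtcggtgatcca
The hexamer lay from base -105 to base -100 before the start in both Cyp4a2 and Cyp4a3 and was not found in the window of Cyp4a8. Of 33469 rat promoter windows of the same 300 bases, 16.2% held AGGTCA, and among the 7 Cyp4 windows it was present in 2. The tandem element of the PPAR-alpha type, AGGTCA repeated after 1 spacer base, was in 0 of the 7 and in 0.0538% of all windows. These matches describe letters in a window and are not evidence of binding.

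Cyp4a1, the lauric acid hydroxylase whose induction marks peroxisome proliferators in rat liver, was measured by a pair of probes. Levels here are log2 signal relative to each array's 75th percentile, so that 0 is the 75th percentile itself. On probe A_64_P040870, which represented the gene, the corn oil livers gave 7.13, 6.88 and 6.76 and the BBMP livers 7.10, 7.13 and 7.16. Corn oil 1 lay at the level of the treated livers, so the groups overlapped. The difference was 0.20 ± 0.12 (SE; n = 3 and 3; limma adjusted p = 0.57), a ratio of 1.15 with a 95% interval that reached up to 1.41. On the other probe, A_44_P1059556, the values were 6.83, 6.78 and 6.68 against 6.97, 6.99 and 7.10. There the groups did not overlap, and the difference was 0.26 ± 0.10 (limma adjusted p = 0.453 with every probe tested). Both probes of Cyp4a1 thus gave a small upward value that did not pass the threshold. The 95% interval was -0.09 to 0.49 on the log2 scale for the main probe (limma unadjusted p = 0.14). For the other probe it was 0.03 to 0.49, which leaves out 0 without adjustment for the number of features (limma unadjusted p = 0.0335). The 0.20 of the main probe was 0.07 with normexp, 0.12 without corn oil 3 and 0.31 without corn oil 1 (limma unadjusted p = 0.0285, adjusted p = 0.403, in the last).

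Cyp4a2, an arachidonic acid hydroxylase, gave 9.80, 9.53 and 9.45 in corn oil livers and 9.58, 9.83 and 8.95 in BBMP livers on its brighter probe. BBMP 2 was the highest of all 6 livers and BBMP 3 the lowest. The difference was -0.14 ± 0.24 (SE; limma adjusted p = 0.856), with a 95% interval from -0.71 to 0.43. Its other probe, A_44_P147020, gave -0.05 ± 0.22 and put BBMP 3 lowest as well, with corn oil 1 highest.

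Cyp4a3, the neighbouring and closely related hydroxylase, gave 9.14, 8.44 and 8.43 in corn oil livers and 8.59, 8.86 and 8.10 in BBMP livers. Its highest value was in a corn oil liver and its lowest in a BBMP liver, but the groups overlapped widely. The difference was -0.15 ± 0.27 (SE; limma adjusted p = 0.856), with a 95% interval from -0.80 to 0.49. Cyp4a8, a Cyp4a enzyme better known from kidney and regulated by sex hormones there, gave 8.73, 8.20 and 8.22 against 8.44, 8.68 and 7.96. Its difference was -0.02 ± 0.23 (limma adjusted p = 0.977), and the group means of 8.38 and 8.36 were almost equal.

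**Figure D1:**
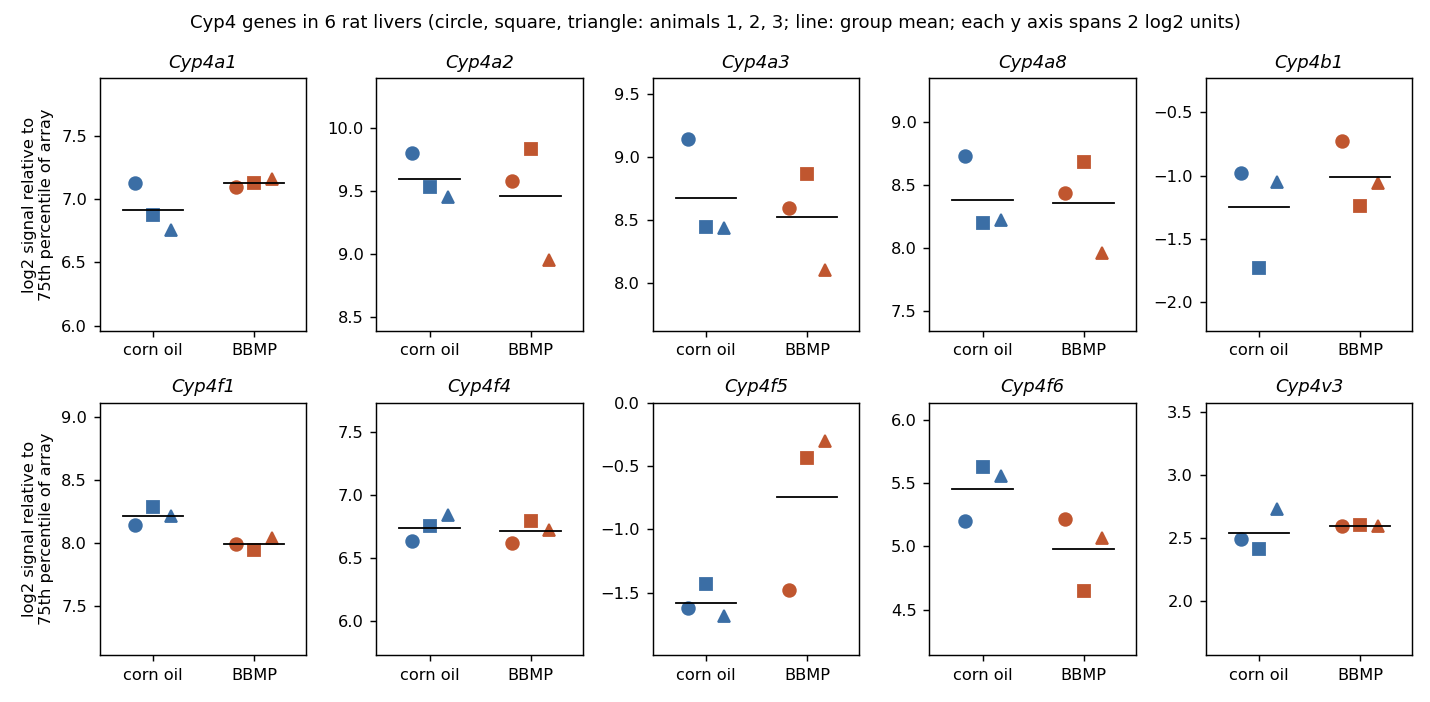
Log2 signal relative to the array's 75th percentile (y axis, spanning 2 log2 units in every panel) of the 10 Cyp4 genes in 3 corn oil (blue) and 3 BBMP livers (orange); circle, square and triangle are animals 1, 2 and 3 of a group and the line is the group mean. Only Cyp4f1 has groups that do not overlap; in Cyp4f5 BBMP 1, at -1.48, lies among the corn oil livers, and in Cyp4a2, Cyp4a3 and Cyp4a8 BBMP 3 is the lowest of the 6 livers.

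The spread of these 3 Cyp4a genes, on the probes that represent them, lay between livers within each treatment group. Each liver had its own array, so animal and array cannot be told apart. Relative to the mean of its own group, corn oil 1 was higher by 0.21 for Cyp4a2, 0.47 for Cyp4a3 and 0.35 for Cyp4a8. BBMP 2 was higher by 0.37, 0.34 and 0.32 in the same order. BBMP 3 deviated by -0.50, -0.41 and -0.40. The highest and the lowest treated liver therefore differed by 1.83-fold for Cyp4a2, 1.69-fold for Cyp4a3 and 1.65-fold for Cyp4a8, while the treated livers differed by 1.04-fold for Cyp4a1. Residual standard deviations were 0.345, 0.394 and 0.334, above 81.8%, 86.6% and 80.7% of all features, against 0.135 for Cyp4a1 and a median of 0.182. The 75th percentiles used for scaling were 450.1, 456.3 and 523.2 intensity units in corn oil 1 to 3 and 524.7, 486.5 and 570.5 in BBMP 1 to 3. Corn oil 1 and BBMP 2 thus had the lowest of their groups and BBMP 3 the highest. The part of the array or its scaling in this spread was not tested.

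On the main probes, the log2 ratio of the Cyp4a8 signal to the Cyp4a2 signal within an array moved over a range of 0.34 across the 6 livers. Cyp4a8 itself moved over 0.77 and Cyp4a2 over 0.88. By root mean square difference of values centred on each gene's mean over the 6 arrays, Cyp4a8 was the gene ranked 2 of 10707 nearest to Cyp4a3 (0.09), Cyp4a2 ranked 15 (0.14) and Cyp4a1 ranked 3316 (0.32). The other genes nearest to Cyp4a3 were Glyatl2 (0.09), the mitochondrial glutamate carrier Slc25a22 (0.09), the sterol desaturase Sc5d (0.10) and Ankrd44 (0.11). These are descriptions over 6 livers. Probe sequences were not used here, so how far a probe for one Cyp4a transcript also reads another was not tested.

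Marker sums of liver cell types are set beside this spread. The summed signal of 13 pericentral markers, in units of the array's 75th percentile, was 722.6, 465.2 and 505.4 in corn oil 1 to 3 and 575.6, 655.1 and 466.2 in BBMP 1 to 3. Corn oil 1 and BBMP 2 were thus the highest of their groups in this sum and BBMP 3 the lowest of its group, as for Cyp4a3. For 10 periportal markers on the array the sums were 700.6, 630.6 and 679.2 against 797.8, 834.1 and 698.3, and for 12 general hepatocyte markers 7248, 7072 and 6904 against 6432, 7091 and 6241. In these lists too, corn oil 1 and BBMP 2 were the highest and BBMP 3 the lowest of their groups, so this order was not particular to the pericentral sum. The sum of 11 Kupffer cell and macrophage markers, 121.2, 138.7 and 184.4 against 181.6, 136.4 and 200.4, ran the other way in these animals, with corn oil 1 and BBMP 2 lowest and BBMP 3 highest of their groups. Between groups, 11 of 13 pericentral markers were lower and 8 of 10 periportal markers higher after BBMP, where 47.5% of all features were higher. In either list 0 passed limma's adjusted threshold. Such a lean was not particular to these lists: 10 of 11 Kupffer cell and macrophage markers were higher and 8 of 11 stellate cell and fibroblast markers lower. Of the general hepatocyte markers, 5 of 12 were higher. The part of cell content in the Cyp4a values was not tested.

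The 3 probes of Cyp4a8 did not order the animals alike. Probe A_64_P040994 gave 4.55, 4.86 and 4.48 in corn oil and 4.45, 4.55 and 3.92 in BBMP livers, with BBMP 3 lowest as on the main probe, but corn oil 2 highest. The dim probe A_64_P040989 gave -3.23, -1.52 and -2.86 against -2.57, -3.85 and -1.66. Its highest values were in corn oil 2 and BBMP 3, the livers that were lowest of their groups on the main probe. The differences were -0.32 ± 0.20 and -0.16 ± 0.65 (SE; limma adjusted p = 0.593 and 0.946 with every probe tested).

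**Figure D2:**
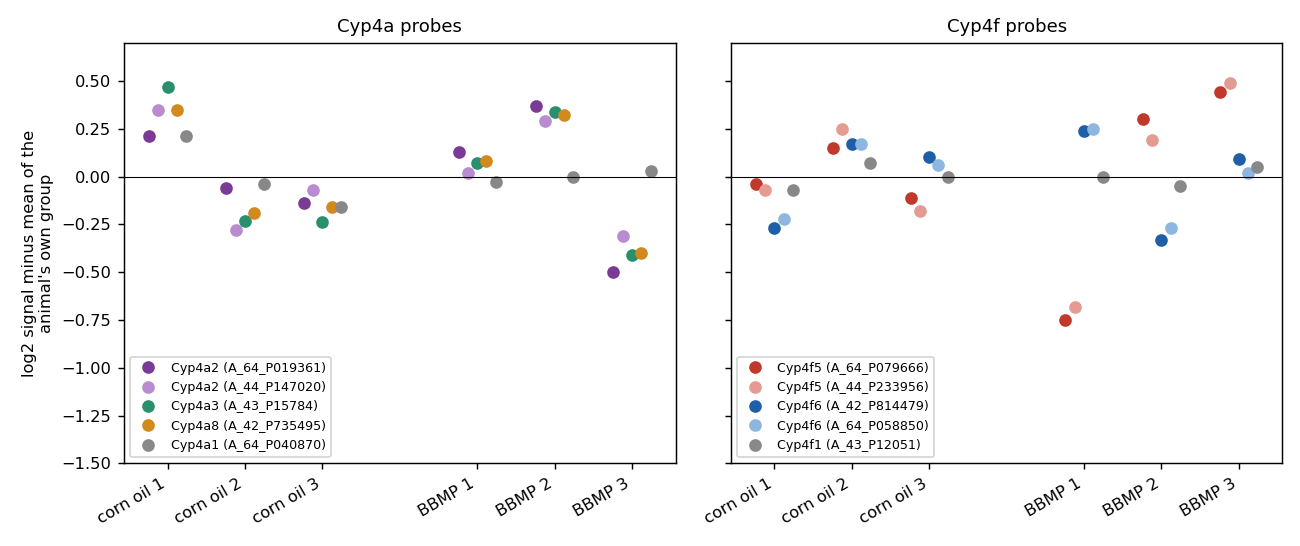
Log2 signal of each liver minus the mean of its own group (y axis) for Cyp4a probes (left) and Cyp4f probes (right), by animal (x axis); each colour is 1 probe, and of Cyp4a8 and Cyp4a1 only the probe that represents the gene is drawn. The probes of Cyp4a2, Cyp4a3 and Cyp4a8 are above 0 in corn oil 1 and BBMP 2 and below 0 in BBMP 3, Cyp4a1 stays within 0.03 of the mean in the treated livers, and both Cyp4f5 probes are far below the mean of their group in BBMP 1, at -0.75 and -0.68.

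Among the Cyp4f genes, Cyp4f1, a leukotriene and fatty acid hydroxylase abundant in rat liver, had the narrowest groups. It gave 8.14, 8.28 and 8.21 in corn oil livers and 7.99, 7.94 and 8.04 in BBMP livers. Every BBMP liver lay below every corn oil liver, which 9.58% of all features showed in that direction. The difference was -0.23 ± 0.09 (SE; limma unadjusted p = 0.0461, adjusted p = 0.457), a ratio of 0.855 with a 95% interval up to 0.996. Its residual standard deviation of 0.059 was larger than that of 4.7% of all features.

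Cyp4f4, another leukotriene hydroxylase, gave 6.63, 6.75 and 6.84 against 6.62, 6.79 and 6.72. The groups covered nearly the same range, and the difference was -0.03 ± 0.10 (SE; limma adjusted p = 0.93; 95% interval -0.28 to 0.22).

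Cyp4f5 had the largest measured difference of the 10 genes. On probe A_64_P079666 the corn oil livers gave -1.62, -1.43 and -1.69 and the BBMP livers -1.48, -0.43 and -0.30. BBMP 2 and BBMP 3 lay above all corn oil livers, while BBMP 1 lay among them. The difference was 0.85 ± 0.31 (SE; limma unadjusted p = 0.0338, adjusted p = 0.436), a ratio of 1.80. Treated livers differed from each other by 2.28-fold and corn oil livers by 1.20-fold. The dimmer probe A_44_P233956 showed the same order of treated livers, with -3.26, -2.94 and -3.37 against -3.25, -2.38 and -2.08. Its difference was 0.62 ± 0.31 (limma adjusted p = 0.529 with every probe tested). Without BBMP 1 the difference of the main probe was 1.22 (limma unadjusted p = 0.000174, adjusted p = 0.298), and without BBMP 3 it was 0.62 (adjusted p = 0.568).

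Among the genes nearest to Cyp4f5 in their values over the 6 livers were Spc25, a kinetochore component (root mean square difference 0.17), the ubiquitin-conjugating enzyme Ube2c (0.20), Bcl2l15 (0.21) and the spindle protein Ckap2 (0.23). They were picked for this likeness, so their own differences after BBMP follow from the choice and are not given.

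Cyp4f6, its subfamily relative, had a measured difference in the other direction. It gave 5.20, 5.63 and 5.56 in corn oil livers and 5.22, 4.65 and 5.07 in BBMP livers. BBMP 2 and BBMP 3 lay below all corn oil livers, and BBMP 1 was level with corn oil 1. The difference was -0.49 ± 0.19 (SE; limma unadjusted p = 0.0411, adjusted p = 0.451), a ratio of 0.714. Probe A_64_P058850 gave 5.22, 5.61 and 5.50 against 5.23, 4.71 and 5.00, a difference of -0.46 ± 0.17. Both probes of Cyp4f5 and both of Cyp4f6 thus placed BBMP 1 inside the corn oil range. For each of Cyp4f1, Cyp4f5 and Cyp4f6 the unadjusted p was above 0.05 when any 1 of corn oil 2, BBMP 2, corn oil 3 and BBMP 3 was left out, so the number of Cyp4 genes under that level, 3 with all arrays, was 0 in each of these 4 fits.

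**Figure D3:**
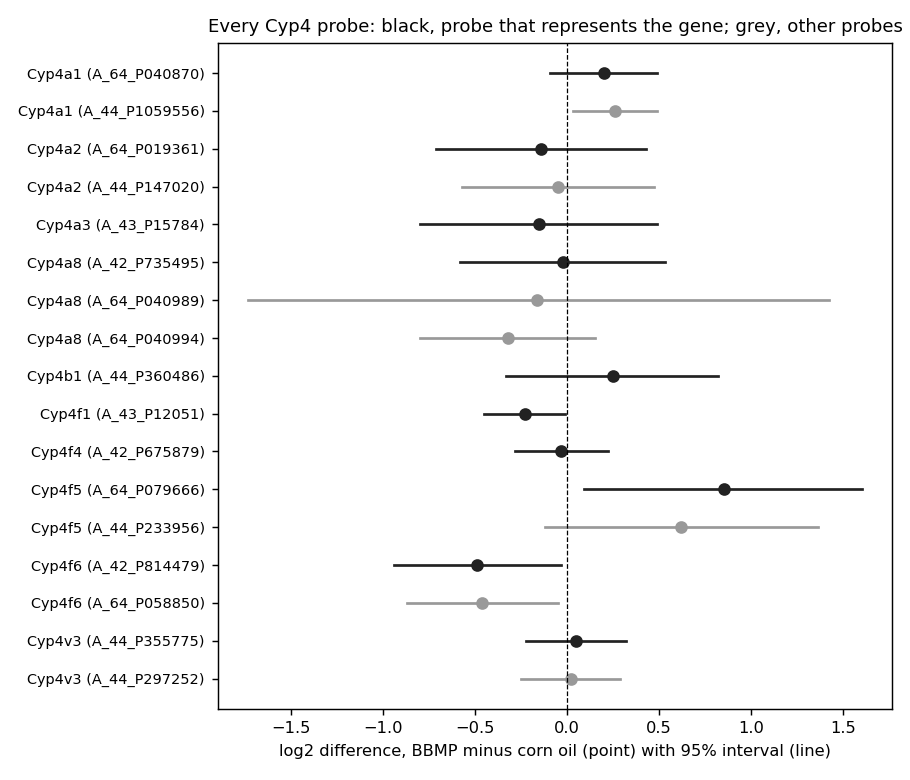
Log2 difference, BBMP minus corn oil (x axis), of all 17 Cyp4 probes with the 95% interval from limma; black marks the probe that represents its gene and grey the other probes. Of the black intervals, those of Cyp4f1, Cyp4f5 and Cyp4f6 leave out 0, without adjustment for the number of features. Of the grey intervals, those of Cyp4a1 (A_44_P1059556) and Cyp4f6 (A_64_P058850) do. The interval of the dim Cyp4a8 probe, from -1.73 to 1.42, is the widest of all.

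Cyp4b1, an enzyme known mainly from lung and for activating protoxins, gave -0.98, -1.73 and -1.05 in corn oil livers and -0.73, -1.24 and -1.06 in BBMP livers. Corn oil 2 was the lowest liver, and the difference of 0.25 ± 0.24 (SE; limma adjusted p = 0.729) was 0.01 without it. Cyp4v3, the rat counterpart of the enzyme lost in a human retinal dystrophy with lipid crystals, gave 2.49, 2.41 and 2.73 against 2.59, 2.60 and 2.59. On this probe, which represented the gene, the treated livers were nearly equal and inside the corn oil range, with a difference of 0.05 ± 0.11 (limma adjusted p = 0.90). The other probe of Cyp4v3 gave 0.02 ± 0.11.

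Of the other rat Cyp4 genes, 3 were tested and 0 passed. Cyp4f40 gave 2.76, 2.90 and 2.81 in corn oil and 2.72, 2.62 and 2.76 in BBMP livers, a difference of -0.13 ± 0.10 (SE; limma adjusted p = 0.651). Cyp4f17 differed by -0.15 ± 0.19 and Cyp4f18, whose probe cleared background in 2 control and 3 treated livers, by -0.08 ± 0.24. Cyp4x1 was not well above background in any liver.

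The remaining genes of the pathway were taken from lists, and 0 members of any list passed limma's adjusted threshold. Among the receptors and coregulators, 10 of 15 were higher, with a median log2 difference of 0.06; at an unadjusted limma p under 0.05 there were 2 higher and 1 lower, where 4.7% and 6.09% of all features were. Ppara, the receptor that drives Cyp4a genes, named for that role and not by its p, gave 1.30, -0.35 and 0.89 in corn oil livers and 1.80, 1.76 and 0.11 in BBMP livers. Corn oil 2 and BBMP 3 were far below the rest of their groups, and the difference was 0.61 ± 0.59 (SE; limma adjusted p = 0.731). Leaving out 1 array moved it to values from 0.13 without corn oil 2 to 1.17 without BBMP 3. The coactivator Ppargc1b differed by 0.79 ± 0.29, the partner receptor Rxrb by 0.23 ± 0.09 and the xenobiotic receptor Nr1i3 by 0.74 ± 0.37 (limma adjusted p from 0.433 to 0.511).

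Peroxisomal genes, which share PPAR-alpha with the Cyp4a genes, were higher in 22 of 28 cases with a median log2 difference of 0.15, where 47.5% of all features were higher. At an unadjusted limma p under 0.05 there were 6 higher and 0 lower, where 4.7% and 6.09% of all features were. The bifunctional beta-oxidation enzyme Ehhadh gave 4.93, 4.05 and 4.43 in corn oil livers and 5.41, 5.41 and 5.80 in BBMP livers (adjusted p = 0.375). The dehydrogenase Hsd17b4 gave 7.21, 7.06 and 7.20 against 7.38, 7.48 and 7.49, and the peroxisomal hydrolase Nudt19 gave 1.51, 1.57 and 1.57 against 1.79, 1.88 and 1.74. Pex11a, a factor of peroxisome division, differed by 0.55 ± 0.11 (SE; limma adjusted p = 0.349). The groups did not overlap for these 4 genes, but they were picked as the list members with the smallest p, which favours such genes. In the whole list 8 of 28 genes had groups without overlap, which 17.8% of all features showed. BBMP 3, the lowest liver for Cyp4a2, Cyp4a3 and Cyp4a8 on their main probes, was the highest for Ehhadh.

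Mitochondrial and cytosolic PPAR-alpha targets had no common direction, with 24 of 43 higher and a median of 0.07, where 47.5% of all features were higher. At an unadjusted limma p under 0.05 there were 2 higher and 3 lower, where 4.7% and 6.09% of all features were. The 4 genes named here were picked as the list members with the smallest p, which favours large differences. Differences were -0.95 ± 0.16 for the kinase Pdk4, -0.79 ± 0.20 for the acyl-CoA synthetase Acsl3, -0.41 ± 0.13 for the fatty acid binding protein Fabp3 and 1.11 ± 0.28 for the glycerol channel Aqp7 (SE; limma adjusted p from 0.315 to 0.406). Aqp7 was dim in corn oil livers, at -3.97, -4.59 and -4.95, and its difference was 0.26 with normexp.

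For the partners that supply P450 enzymes with electrons and haem, 5 of 8 were higher with a median of 0.12. At an unadjusted limma p under 0.05 there were 0, where 10.8% of all features reached that level. Alas1, the rate-limiting enzyme of haem synthesis, gave 7.15, 6.30 and 6.89 in corn oil livers and 8.25, 8.43 and 6.78 in BBMP livers, a difference of 1.04 ± 0.47 (SE; limma adjusted p = 0.486). BBMP 1 and BBMP 2 lay above all corn oil livers and BBMP 3 did not. Fech differed by 0.42 ± 0.18, Hmox1 by -0.32 ± 0.18 and Pgrmc1 by 0.14 ± 0.10. The reductase Por, named for its role, differed by 0.37 ± 0.41 (limma adjusted p = 0.763).

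Enzymes that oxidise the hydroxylated fatty acid further were higher in 5 of 10 cases with a median of 0.02. The aldehyde dehydrogenase Aldh3a1 gave -0.50, -0.40 and -0.52 against -1.10, -0.57 and -0.98, without overlap (limma adjusted p = 0.439). It was the 1 member of this list with an unadjusted limma p under 0.05, which 10.8% of all features had. In this list 1 of 10 genes had groups without overlap, which 17.8% of all features showed. Aldh1a1 differed by 0.79 ± 0.40, the acyl-CoA synthetase Acsl5 by 0.20 ± 0.16 and the alcohol dehydrogenase Adh4 by 0.26 ± 0.25 (SE). Other eicosanoid enzymes were higher in 15 of 25 cases with a median of 0.13 and 0 at an unadjusted limma p under 0.05, where 10.8% of all features were. The epoxygenase Cyp2c23 differed by 0.23 ± 0.11, Cyp2c12 by 1.10 ± 0.55 and Cyp2j4 by 0.33 ± 0.21. The dim prostaglandin synthase Ptges, whose probe cleared background in 1 control and 3 treated livers, gave 0.48 ± 0.29. It entered the test only through the treated group, which favours an upward value, and its difference was 0.00 with normexp.

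**Figure D4:**
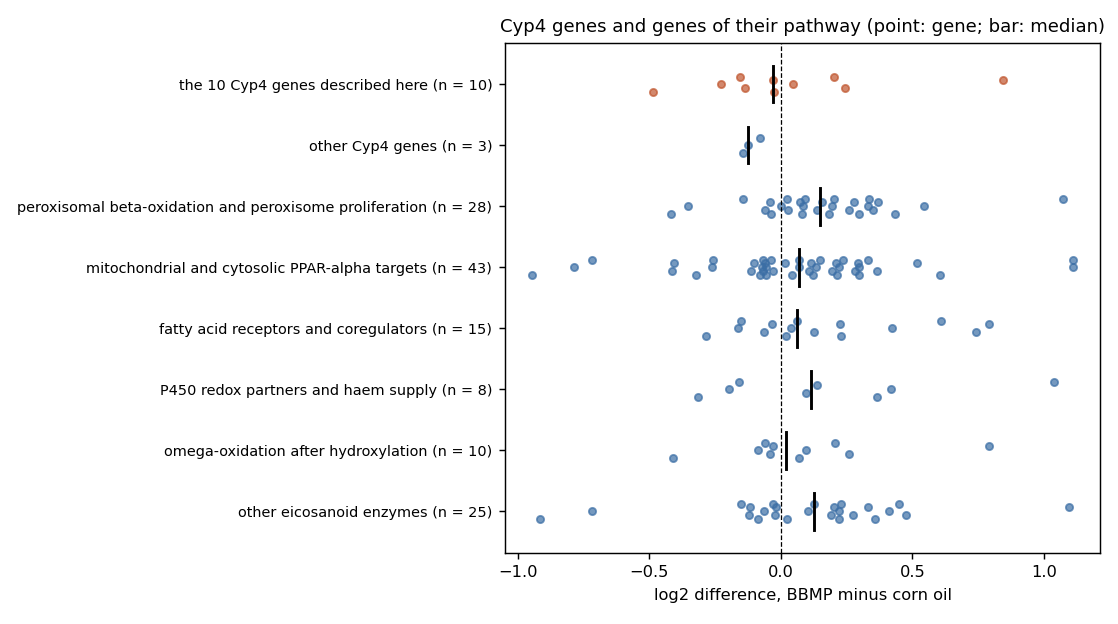
Log2 difference, BBMP minus corn oil (x axis), of each tested gene (point; vertical scatter only separates points) for the 10 Cyp4 genes in orange and the pathway lists in blue, with the median as a black bar. The Cyp4 median is -0.03 and the peroxisomal median 0.15, and no gene shown passed limma's adjusted threshold.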

How the data were processed

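Per the file headers, the authors read the arrays (Agilent design 035170, annotated on rn4) with Feature Extraction 10.7.1.1 and deposited each spot's background-subtracted, spatially detrended signal as linear intensity. RNA input to Cy3 labelling was 0.2 µg, per the labels' protocols. The authors' deposited value table is also linear intensity, and each of its columns equalled the scanner signal divided by 1 constant, between 449.4 and 567.9, with medians from 0.0971 to 0.1005; its centring is none, and the software is not given in the sources used here.

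Spots for controls and 84 for spike-ins were dropped, as were up to 21 outlier spots on an array. Probes were named through unversioned accessions in the RefSeq table of GRCr8 (27460 of 61573 probes). Signals were scaled to the array's 75th percentile (450.1 to 570.5 intensity units) and taken to log2. Groups were compared by two-sided moderated tests without covariates (limma 3.58.1, R 4.3.3), with Benjamini-Hochberg adjustment over 28112 features. Testing required all 3 arrays of at least 1 group to be well above background for a probe, and the brightest such probe represented a gene. Intervals are 95% from the same fit. Tables were made with Python 3.11.15. The fit was tested on simulated data for this comparison (28112 features), with independent noise and 100 features changed by 1 and 100 by 2 on the log2 scale. It recovered 38% of changes of 1 and 77% of changes of 2, with 5 false calls. Recovery with another number of changed features was not tested.

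The genes and lists were chosen with earlier results of these data known. The named genes are all 10 Cyp4 genes, the 5 nearest patterns of the 2 genes with the widest range, and up to 4 list members with the smallest p; others are said to be named for their role. Some genes that this rule selects are not reported here. Alternatives were quantile and median scaling, normexp (offset 50, on the median spot signal, the column available here), filters, probe rules, trended moderation, the value table, a replicate block and leaving out each array.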

Additional observations from a re-analysis of the deposited data

How the results depend on the processing

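Under 16 alternatives 0 of the 10 Cyp4 genes passed, as in the fit reported, and 0 list members did. Features past the threshold, 2 in all, numbered 0 with normexp, 1 without a filter, 0 with the filter on all 6 arrays, 0 with the replicate block and 0 to 4 when 1 array was left out (0 without corn oil 3, 4 without corn oil 2 or BBMP 3); the cause was not tested. The block left 1 Cyp4 gene at an unadjusted limma p under 0.05, Cyp4f5; nothing shows that equal numbers mark paired animals, with correlations of deviations of 0.0894, 0.0159 and 0.0719. Cyp4 genes higher after BBMP numbered 3 to 7 and those lower 3 to 7 when 1 array was left out, with 7 higher and 3 lower without BBMP 3. Scaling reversed no Cyp4 gene, but leaving out 1 array reversed 5: Cyp4a2 ranged from -0.32 to 0.11, Cyp4a3 from -0.32 to 0.08, Cyp4a8 from -0.19 to 0.17, Cyp4f4 from -0.09 to 0.02 and Cyp4v3 from -0.02 to 0.14. Of 39 other genes followed, those that changed sign when 1 array was left out were Cyp4f17 (-0.29 to 0.04), Cyp4f18 (-0.33 to 0.15), Adh4 (-0.01 to 0.46), Por (-0.04 to 0.63), Glyatl2 (-0.29 to 0.03), Slc25a22 (-0.20 to 0.23) and Ankrd44 (-0.13 to 0.27). Glyatl2, Slc25a22 and Ankrd44 were picked for their likeness to Cyp4a3 over the same arrays, so their values are not independent of those of Cyp4a3. Cyp4f17 was 0.00 and Ankrd44 -0.07 with the mean of a gene's probes, Ankrd44 was -0.20 with normexp, and Slc25a22 was 0.00 with median scaling. Values that normexp moved by over 1.5 times without a change of sign included Cyp4b1 at 0.16, Cyp4f40 at -0.02, Aldh3a1 at -0.25, Fabp3 at -0.19, Fech at 0.24, Hmox1 at -0.16, Rxrb at 0.13 and Ptges at 0.00, beside Cyp4a1 and Aqp7. Cyp4a2 was -0.02 with quantile normalization and Cyp4f6 -0.32 without BBMP 2. Among list members, leaving out corn oil 1 or 2 moved Aldh1a1 to 1.20 or 0.37 and Nr1i3 to 1.16 or 0.44. Signal over background limits the dim probe of Cyp4a8, the dimmer probe of Cyp4f5, Aqp7, Cyp4f18 and Ptges.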
